A study of Mus musculus with 38 samples.

Results

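The genes described here are the AP-1 and immediate early transcription factors of the mouse heart: Fos, Fosb, Fosl2, Jun, Junb, Jund, Atf3, Maff, Egr1 and Ier2. They were chosen by name, as the rows of the count matrix whose Ensembl identifier carries 1 of these symbols, and all 10 were found among 35682 genes. Cardiomyocytes (CMs), endothelial cells (ECs) and fibroblasts (FBs) were profiled from 1 surgical model in 38 libraries, with 4 to 5 libraries per population and group. Male C57BL/6 mice aged 8 to 12 weeks took an oral dose every day for 6 weeks, either vehicle (DMSO in saline) or empagliflozin (EMPA, an SGLT2 inhibitor) at 10 mg/kg. Sham mice had vehicle and an open-chest operation without ligation, Control-AMI mice had vehicle, and EMPA-Pre-AMI mice had EMPA, the last 2 groups with 30 min of ligation of the left anterior descending artery and 2 h of reperfusion. No group had EMPA without ischemia, so an effect of the drug on an uninjured heart was not analysed here.

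Each library pooled cells of 2 hearts, taken from the ischemic part below the suture. Hearts were perfused with buffer for 4 min and digested with collagenase for 11 min, after which CMs were collected by low-speed centrifugation. ECs (CD45- CD31+) and FBs (CD45- CD31- CD90+) went on through red cell lysis (10 min), Fc blocking (15 min) and staining (30 min) before fluorescence-activated sorting. Every library therefore holds cells that were dissociated before lysis, and none holds intact tissue, so the level that isolation alone adds to these genes could not be measured. The p-values below reflect the spread between such pools of hearts within a group. The labels do not say which libraries of the 3 populations came from the same hearts.

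AP-1 is a dimer of basic leucine zipper proteins, formed by a Jun protein with a Fos protein or by 2 Jun proteins, and binds a short palindrome in promoters and enhancers. Most of these genes are immediate early genes, transcribed within minutes of a growth factor, stretch, ischemic or oxidative signal without new protein synthesis, and many of their mRNAs are short-lived. In the heart they are known for their response to ischemia and pressure load, and in dissociated tissue for their response to enzymatic digestion. Each member has its own place: Fos, Fosb and Fosl2 are the Fos side of the dimer, Jun, Junb and Jund the Jun side, Atf3 and Maff are related leucine zipper factors, Egr1 is a zinc finger factor, and Ier2 is a nuclear protein of the same response.

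Promoter sequences were taken from RefSeq (GRCm38.p6) for the 8 members that matched an entry, all but Egr1 and Ier2, and each printed stretch had 1 exact match on its chromosome in GRCm39, the build of the count matrix. The 120 bases before the transcription start are printed for Fosl2 and Maff, the members that rose after AMI, and for Jun and Fos, which varied together between libraries. Capitals mark a searched motif on either strand.
Fosl2, chr5:32293696-32293815 (plus strand): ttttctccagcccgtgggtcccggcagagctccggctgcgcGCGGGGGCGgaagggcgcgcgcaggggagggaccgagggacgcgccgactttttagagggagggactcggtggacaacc
Maff, second of its 3 starts, chr15:79231600-79231719 (plus strand): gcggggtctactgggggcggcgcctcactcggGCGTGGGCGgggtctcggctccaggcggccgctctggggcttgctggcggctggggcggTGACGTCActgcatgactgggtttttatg
Jun, chr4:94940460-94940579 (minus strand): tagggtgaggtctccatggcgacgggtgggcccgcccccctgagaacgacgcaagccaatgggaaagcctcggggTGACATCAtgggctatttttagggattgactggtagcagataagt
Fos, chr12:85520544-85520663 (plus strand): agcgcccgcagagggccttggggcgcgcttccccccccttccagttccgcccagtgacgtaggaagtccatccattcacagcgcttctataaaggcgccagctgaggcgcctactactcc

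The motifs were searched on both strands in the 250 bases before each start, and their background is the share of all 32851 promoter windows of that length in the table. TGACGTCA, the cAMP response element, stood in 1 of the 8 members, Maff, and in 1.55% of all windows. TGACATCA, an AP-1 variant, stood in Jun and in the third start of Maff, each at -45, and in 2.93% of all windows. GCGGGGGCG, a site that fits Egr proteins, stood in Fosl2 at -79 and Fosb at -50, and in 2.57% of all windows, and its variant GCGTGGGCG stood in Maff at -88 and in 0.536%. Neither TGACTCA, the classic AP-1 palindrome, nor the CArG box bound by serum response factor stood in these 250 bases of any of the 8. Their shares of all windows were 4.46% and 1.47%. Sites farther from the start were not searched, and Egr1 and Ier2 had no window, so absence from these genes was not shown. The pairs TGACGTCA and TGACATCA differ by 1 letter and do not overlap here, and a match is a run of letters, not a measured binding site.

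The matrix holds estimated counts from a 3' protocol, and library totals ran from 1352514 to 4509284. Mitochondrially encoded genes took 46.6% to 66.01% of the counts of CM libraries, 4.52% to 14.6% of EC libraries and 3.47% to 12.5% of FB libraries. Levels below are CPM, a gene's count relative to the scaled total of its library, with the scaling done within 1 population unless stated otherwise, and values are listed in the order of the replicate numbers. Defining markers stood with the labels, since between Sham libraries all 10 CM markers were higher in CMs, all 10 EC markers higher in ECs and all 10 FB markers higher in FBs than in each other population. The EC libraries of the Control-AMI group stood apart by their FB markers (Col1a1, Dcn, Pdgfra and others), whose summed level was 837 to 2449 CPM in Sham, 3374 to 14332 in Control-AMI and 742 to 1455 in EMPA-Pre-AMI ECs. Their EC markers summed to 7516 to 10258 CPM, without overlap with 14365 to 15833 in Sham or 10508 to 15018 in EMPA-Pre-AMI ECs, and 3 of 10 were lower than in Sham by edgeR. In bulk libraries of this kind, fewer cells of a type and less RNA per cell cannot be told apart. Along the sample-sheet numbers the libraries form 4 ascending lists, whose meaning the labels do not give, and 3 of 4 Sham FB libraries stood in list 1 and 3 of 4 Control-AMI FB libraries in list 4.

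Fosl2 and Maff were the members that rose after AMI, and they did so in both sorted populations. With edgeR's quasi-likelihood test and a false discovery rate (FDR) over all genes below 0.05, 2 of 10 members were higher in Control-AMI than in Sham FBs, beside 4.16% of 10691 genes, and 2 of 10 in ECs, beside 6.56% of 10438 genes. In CMs 0 of 10 passed, beside 0.0655% of 9167 genes; 5 members (Fosb, Fosl2, Junb, Atf3 and Maff) had an unadjusted p under 0.05, and DESeq2 called 0. The median log2 fold change of the members was 0.56 in FBs, 0.63 in ECs and 0.51 in CMs, with medians over all genes of -0.03, -0.02 and 0.01. Control-AMI and Sham libraries did not overlap for 1315 of 10691 genes in FBs, 1181 of 10438 in ECs and 226 of 9167 in CMs. For EMPA-Pre-AMI and Sham these counts were 1266, 685 and 722. Lack of overlap, given below for single members, is thus not rare.

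**Figure D1:**
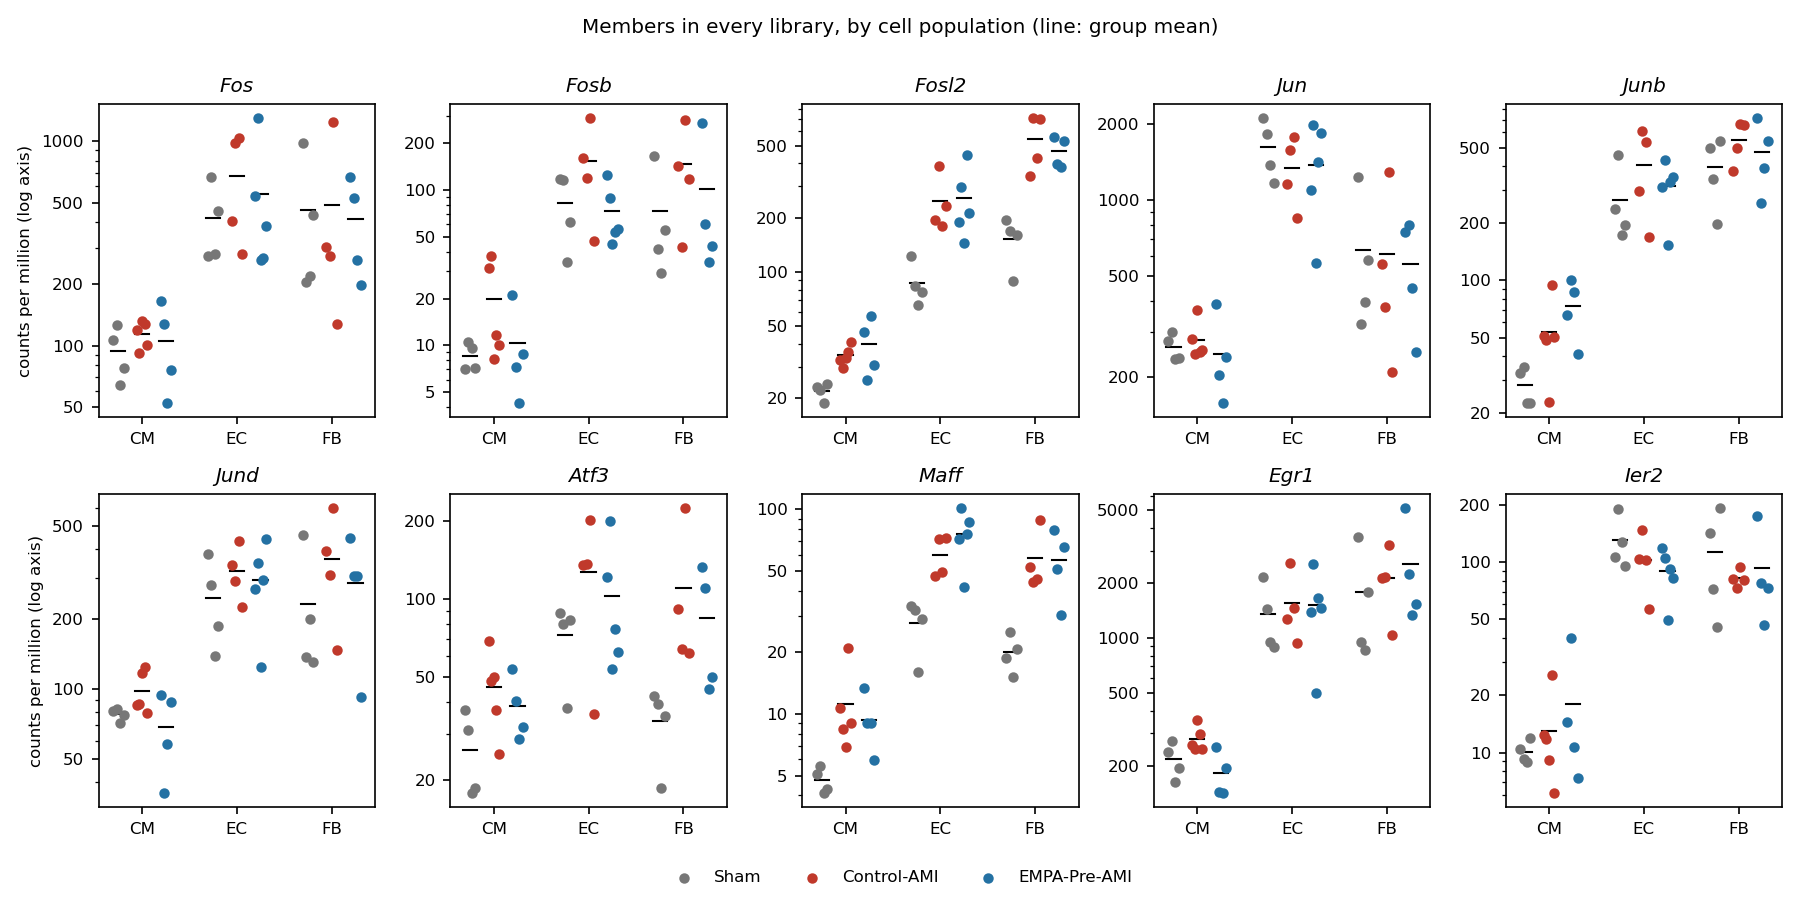
Level of each member in every library (points in CPM on a log axis) by population and group, with the group mean as a line. Levels are scaled within each population, so the height of points is comparable within CM, EC or FB only. In FBs all 8 Fosl2 and all 8 Maff points of the operated groups lie above the 4 Sham points, whereas Fos, Jun and Egr1 overlap between groups in every population.

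Fosl2 encodes Fra-2, a Fos-family protein that lacks the strong activation domain of Fos. In FBs its level was 193, 168, 88.9 and 160.2 CPM in Sham, 338, 709, 429.7 and 700.1 in Control-AMI and 560.0, 396, 379 and 532 in EMPA-Pre-AMI libraries. Every library of the AMI groups (Control-AMI and EMPA-Pre-AMI) lay above every Sham library. Among FB libraries 0 of 10 FB markers passed between Control-AMI and Sham (edgeR and DESeq2; 3 at an unadjusted p under 0.05), and 1 of 10 mural cell markers was higher. The log2 fold change was 1.84 ± 0.27 (SE; FDR = 0.00121) for Control-AMI and 1.61 ± 0.27 (SE; FDR = 0.00246) for EMPA-Pre-AMI against the same Sham libraries. When the sample-sheet list entered the model, the Control-AMI change was 1.89 (edgeR, FDR = 0.00389), and within list 4, where 1 Sham library at 193 CPM met 3 Control-AMI libraries at 338 to 709 CPM, it was 1.37 (FDR = 0.292). In list 1, with too few libraries for a fit, the 3 Sham FB libraries held 88.9 to 168 CPM, the 1 Control-AMI library 700.1 CPM and the 1 EMPA-Pre-AMI library 532 CPM. This Control-AMI library, replicate 4, had a summed mural marker level of 6204 CPM, against 981 to 1547 in the others of its group. The part of mural transcripts in its Fosl2 level was not tested.

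In ECs, Fosl2 stood at 123, 83.2, 65.7 and 77.7 CPM in Sham, 194, 385, 179 and 232 in Control-AMI and 189, 295, 144, 445 and 211 in EMPA-Pre-AMI libraries. The lowest library of the AMI groups, at 144 CPM, lay above the highest Sham library. On the log2 scale Fosl2 was above Sham by 1.50 ± 0.36 (SE; FDR = 0.0275) in Control-AMI and 1.56 ± 0.35 (SE; FDR = 0.0316) in EMPA-Pre-AMI ECs. Without Sham replicate 3, the lowest Sham library, the FDR of the Control-AMI change was 0.0843 with a log2 fold change of 1.40, and that of the EMPA-Pre-AMI change 0.115 with 1.43 (edgeR). The EMPA-Pre-AMI call held in 16 of the 23 other settings tried. FB markers moved with the Control-AMI group in ECs, where 8 of 9 tested were higher than in Sham, and in the EMPA-Pre-AMI ECs 0 of 9 passed (edgeR and DESeq2; 0 at an unadjusted p under 0.05).

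**Figure D2:**
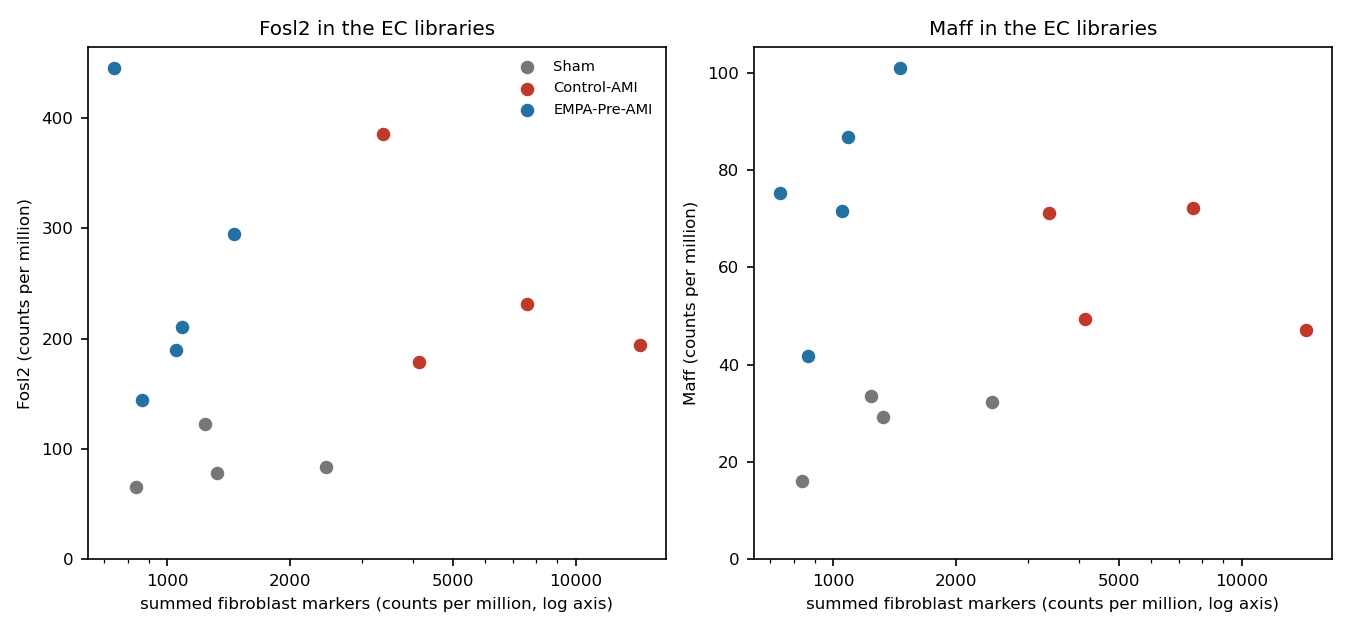
Fosl2 (left) and Maff (right) in the 13 EC libraries (CPM) against the summed level of 10 fibroblast markers in the same library (CPM, log axis), coloured by group. Libraries of the EMPA-Pre-AMI group have marker sums of 742 to 1455, within or below the Sham range of 837 to 2449, and all lie above the Sham libraries in Fosl2 and Maff.

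Fosl2 in CMs was 23.1, 22.3, 18.8 and 24.2 CPM in Sham, 32.7, 29.4, 33.5, 36.0 and 41.01 in Control-AMI and 46.8, 25.4, 56.9 and 30.6 in EMPA-Pre-AMI libraries. The libraries of the AMI groups did not overlap with Sham here either. Control-AMI differed from Sham by 0.64 ± 0.22 (SE; FDR = 1) and EMPA-Pre-AMI by 0.86 ± 0.23 (SE; FDR = 0.105) on the log2 scale, and neither passed in edgeR.

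Maff is a small Maf protein, which has a leucine zipper but no activation domain and pairs with NRF2, Bach or other small Maf proteins. Its FB levels were 18.8, 25.1, 15.2 and 20.8 CPM in Sham, 52.1, 43.9, 45.5 and 88.5 in Control-AMI and 79.4, 51.1, 30.6 and 65.6 in EMPA-Pre-AMI libraries, again without overlap between Sham and the AMI groups. The log2 fold changes against Sham were 1.52 ± 0.30 (SE; FDR = 0.00765) and 1.50 ± 0.30 (SE; FDR = 0.00806). Within list 4 the Control-AMI change was 1.34 (edgeR, FDR = 0.0382) and the EMPA-Pre-AMI change 1.13 (FDR = 0.125), and this list held 1 Sham library beside 3 of Control-AMI and 2 of EMPA-Pre-AMI FBs. The same restriction gave 1.02 (FDR = 0.46) for Fosl2 in EMPA-Pre-AMI FBs.

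The EC levels of Maff were 33.6, 32.3, 16.1 and 29.2 CPM in Sham, 47.2, 71.2, 49.5 and 72.2 in Control-AMI and 71.6, 101, 41.8, 75.4 and 86.8 in EMPA-Pre-AMI libraries. Sham replicate 3 was again the lowest library, and no library of the AMI groups reached down to the Sham range. Maff rose by 1.11 ± 0.27 (log2, SE; FDR = 0.0127) in Control-AMI and by 1.44 ± 0.25 (FDR = 0.00167) in EMPA-Pre-AMI ECs. With the sample-sheet list in the model, the Control-AMI value was 1.19 with an FDR of 0.063 in edgeR. Within list 2 its FDR was 0.107, and without Sham replicate 3 it was 0.0549 with a log2 fold change of 0.93, so the Control-AMI call ended in each of these fits.

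In CMs the Maff level was low, 5.07, 5.58, 4.10 and 4.32 CPM in Sham, 10.7, 8.46, 6.90, 21.0 and 9.04 in Control-AMI and 13.4, 9.07, 9.05 and 5.98 in EMPA-Pre-AMI libraries. Control-AMI replicate 4 stood above the rest, and the libraries of the AMI groups did not overlap with Sham. The log2 fold change of 1.22 ± 0.33 had an unadjusted p of 0.00162 and an FDR of 0.437 in edgeR.

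Fos, the prototype of the family and a partner of all 3 Jun proteins, showed no group difference that exceeded its spread. In FBs it was 982, 205, 219.9 and 434 CPM in Sham, 302, 274, 1240.2 and 128 in Control-AMI and 671, 525, 262 and 198 in EMPA-Pre-AMI libraries. The highest library of each group was 4.79, 9.72 and 3.38 times its lowest, and the ranges of the 3 groups overlapped. The log2 fold change of Control-AMI against Sham was 0.08 ± 0.76, with a 95% interval of -1.62 to 1.77.

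EC levels of Fos were 275, 670.3, 280.3 and 456 CPM in Sham, 405, 976, 1029 and 281 in Control-AMI and 538, 1292, 262, 268 and 386 in EMPA-Pre-AMI libraries. High and low libraries occurred in each group, and the log2 fold change was 0.68 ± 0.61 (95% interval -0.68 to 2.03). CM libraries held 63.9 to 127 CPM in Sham, 92.0 to 132 in Control-AMI and 52.3 to 165 in EMPA-Pre-AMI, with a log2 fold change of 0.29 ± 0.27 (95% interval -0.29 to 0.86). Fosb, its close relative, was at 166, 41.8, 29.1 and 55.3 CPM in Sham, 143, 43.2, 281 and 118 in Control-AMI and 270.4, 60.0, 34.3 and 43.8 in EMPA-Pre-AMI FBs. Its ranges also overlapped between the 3 groups. In CMs Fosb was 31.3, 37.6, 8.21, 11.7 and 10.0 CPM in Control-AMI, where replicates 1 and 2 stood above the rest, against 7.04, 10.4, 9.58 and 7.12 in Sham, and its log2 fold change of 1.21 ± 0.48 had an unadjusted p of 0.0221 that failed the correction in edgeR.

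Jun encodes c-Jun, the main target of the JNK kinases and the strongest activator of the Jun side. Its FB levels were 1239, 325, 394 and 581 CPM in Sham, 559, 377, 1297 and 209.5 in Control-AMI and 746, 800.0, 449.5 and 251 in EMPA-Pre-AMI libraries. The highest Sham library and the highest Control-AMI library were close to each other, and the 2 lowest libraries belonged to the AMI groups. The log2 fold change of Control-AMI against Sham was -0.06 ± 0.61 in FBs, -0.27 ± 0.36 in ECs and 0.10 ± 0.23 in CMs, with 95% intervals of -1.42 to 1.30, -1.05 to 0.50 and -0.38 to 0.57.

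Junb, which antagonizes c-Jun at many promoters, was 32.4, 34.96, 22.6 and 22.6 CPM in Sham, 51.0, 48.4, 22.99, 94.3 and 50.4 in Control-AMI and 65.9, 101, 86.9 and 40.8 in EMPA-Pre-AMI CMs. All 4 EMPA-Pre-AMI libraries lay above the Sham range, as did 4 of 5 Control-AMI libraries. The log2 fold change against Sham was 0.92 ± 0.32 (SE; FDR = 1) for Control-AMI and 1.38 ± 0.34 (SE; FDR = 0.0975) for EMPA-Pre-AMI, the second of which DESeq2 called (FDR = 0.013) and edgeR did not. Of the 4 EMPA-Pre-AMI CM libraries, 3 stood in other sample-sheet lists than the Sham and Control-AMI CM libraries, and with a list term the value was 0.53 (FDR = 1 in edgeR).

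Junb in the sorted cells overlapped between groups, with 174 to 459 CPM in Sham and 169 to 609 in Control-AMI ECs, and 199 to 540.0 and 378 to 668 in FBs. Jund, the constitutive Jun protein, was 71.5 to 82.3 CPM in Sham and 78.8 to 124 in Control-AMI CMs, 139 to 378 and 225 to 430.4 in ECs, and 130.1 to 457 and 147 to 597 in FBs. Its log2 fold changes after AMI, 0.34 ± 0.23, 0.39 ± 0.38 and 0.64 ± 0.56, did not pass.

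Atf3 is a stress-inducible factor of the ATF family, usually a repressor as a homodimer, that pairs with Jun proteins. In FBs it was 42.0, 39.2, 18.6 and 35.2 CPM in Sham, 91.2, 64.2, 224 and 61.7 in Control-AMI and 133, 111, 44.8 and 50.1 in EMPA-Pre-AMI libraries. Sham libraries did not overlap with those of the AMI groups, but 1 Control-AMI library, replicate 3, was over 2 times the next. On the log2 scale the difference from Sham was 1.70 ± 0.48 (SE; FDR = 0.0709) for Control-AMI, which missed the threshold in edgeR and passed in DESeq2 (FDR = 0.00228), and 1.32 ± 0.48 (SE; FDR = 0.144) for EMPA-Pre-AMI, which DESeq2 called as well (FDR = 0.029). In ECs the Control-AMI libraries at 135, 137, 203 and 36.1 CPM reached both above and below the Sham libraries at 88.5, 80.3, 38.0 and 83.3 CPM. The highest of them, replicate 3, had a summed leukocyte marker level of 652 CPM, against 34.5 to 59.8 in the others of its group. Its mitochondrial share was 14.6%, against 4.52% to 5.67%. The part of leukocyte transcripts in its Atf3 level was not tested. CM levels were 37.2, 31.1, 17.8 and 18.6 CPM in Sham and 68.6, 48.1, 49.9, 37.3 and 25.2 in Control-AMI, with a log2 fold change of 0.81 ± 0.28 and an unadjusted p of 0.0099 that failed the correction in edgeR.

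Egr1, a zinc finger activator of growth factor and coagulation genes, was 238, 272, 163 and 195 CPM in Sham, 261, 246, 353, 299 and 247 in Control-AMI and 252, 143, 141 and 195 in EMPA-Pre-AMI CMs. Its lowest Control-AMI library lay just below the highest EMPA-Pre-AMI library. The log2 difference between EMPA-Pre-AMI and Control-AMI was -0.62 ± 0.21 (SE; FDR = 0.0944), the lowest FDR of any member between those groups, and it did not pass. Sorted cells ranged widely, with Egr1 at 856 to 3552 CPM in Sham, 1031 to 3246 in Control-AMI and 1332 to 5130.2 in EMPA-Pre-AMI FBs, and 892 to 2145, 936 to 2572 and 499 to 2547 in ECs. Ier2 was 95.8 to 191 CPM in Sham and 56.7 to 148 in Control-AMI ECs, and 45.5 to 192 and 73.2 to 94.5 in FBs, with log2 fold changes of -0.35 ± 0.29 and -0.46 ± 0.44 that did not pass. Ier2 and Egr1 each showed a positive fitted value in CMs, 0.36 ± 0.43 and 0.37 ± 0.21, which also did not pass.

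**Figure D3:**
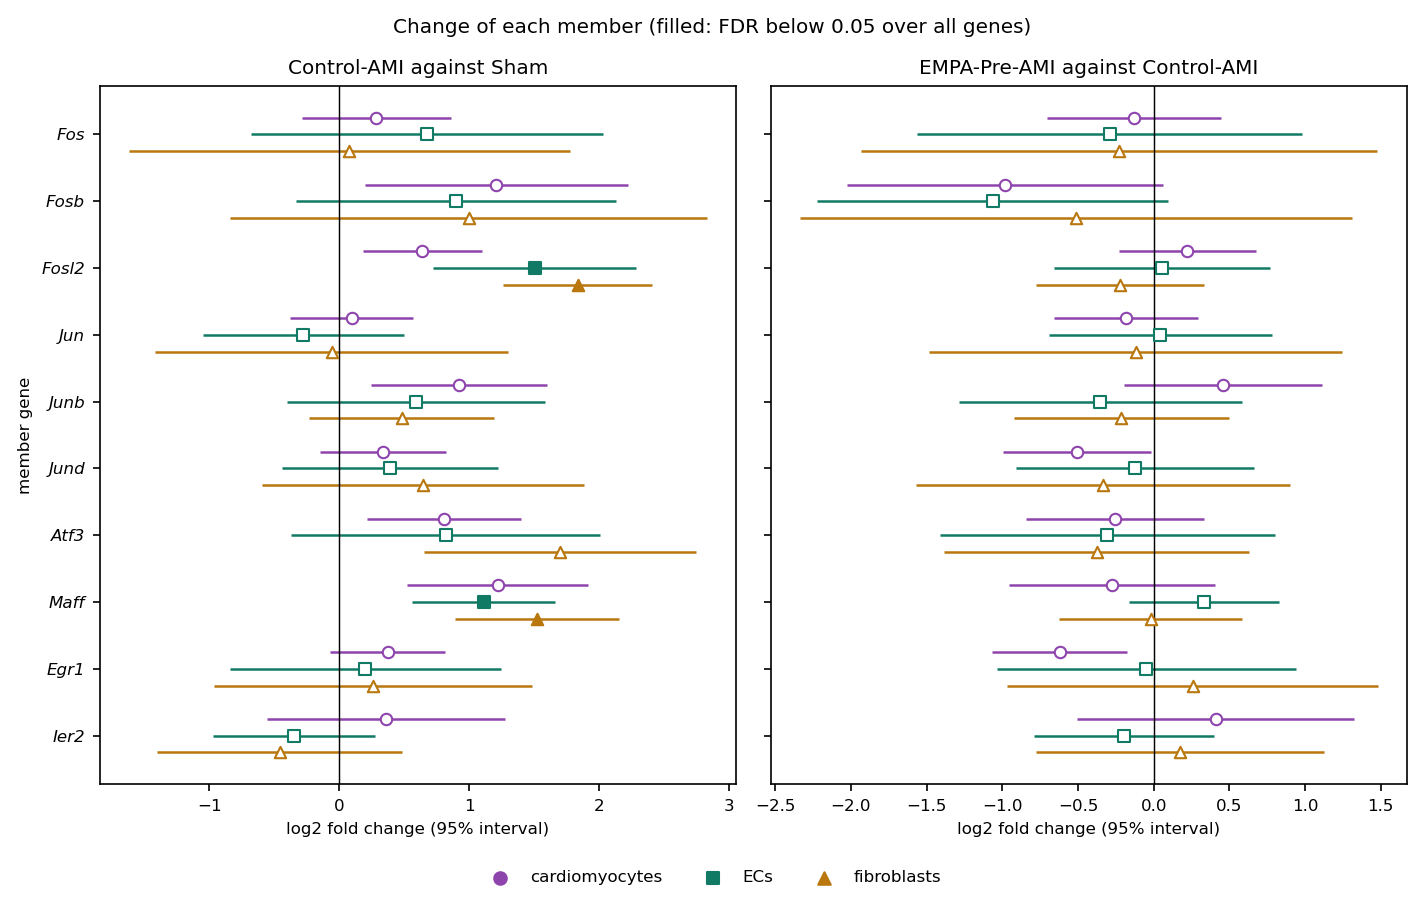
Log2 fold change of each member (points) with its 95% interval (lines) in cardiomyocytes, ECs and fibroblasts, for Control-AMI against Sham (left) and EMPA-Pre-AMI against Control-AMI (right). Filled points passed an FDR of 0.05 over all genes in edgeR, and these are Fosl2 and Maff in ECs and fibroblasts on the left. The intervals of Fos, Fosb and Jun in fibroblasts span more than 2.5 log2 units.

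No member passed between EMPA-Pre-AMI and Control-AMI in any population. By edgeR 0 of 10 members passed in CMs, beside 0.0218% of all genes, 0 of 10 in ECs, beside 2.63%, and 0 of 10 in FBs, beside 0%, where no gene at all passed and 170 had an unadjusted p under 0.05. DESeq2 also called 0 members in each population, and at an unadjusted p under 0.05 there were 2 in CMs (Egr1 and Jund) and 0 in ECs and FBs. For Fosl2 the log2 difference was 0.05 ± 0.33 in ECs (95% interval -0.66 to 0.77) and -0.22 ± 0.26 in FBs (-0.77 to 0.33). For Maff it was 0.33 ± 0.24 in ECs (-0.17 to 0.83) and -0.02 ± 0.29 in FBs (-0.63 to 0.58). Fosb had the lowest fitted values, -1.06 ± 0.53 in ECs and -0.98 ± 0.49 in CMs, with intervals that included 0. Over the 10 members the fitted differences ran from -0.98 (Fosb) to 0.46 (Junb) in CMs, from -1.06 (Fosb) to 0.33 (Maff) in ECs and from -0.52 (Fosb) to 0.26 (Egr1) in FBs. Equal levels in the 2 AMI groups were not shown by these intervals.

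Against Sham, the EMPA-Pre-AMI group gave by edgeR 2 of 10 members in ECs, beside 2.71% of all genes, and 2 of 10 in FBs, beside 5.11%, Fosl2 and Maff in each. DESeq2 called the same 2 in ECs and 3 in FBs, Atf3 being the other one. In CMs edgeR gave 0 of 10, beside 0.338%, with 3 members (Fosl2, Junb and Maff) at an unadjusted p under 0.05 and 2 (Fosl2 and Junb) called by DESeq2. This comparison shares its Sham libraries with that of Control-AMI, so the repeated calls are not independent. Over the 10 members the log2 fold changes ran from -0.25 (Egr1) to 1.38 (Junb) in CMs, from -0.55 (Ier2) to 1.56 (Fosl2) in ECs and from -0.28 (Ier2) to 1.61 (Fosl2) in FBs.

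The size of the AMI response was compared between populations with an interaction term over all 38 libraries. By edgeR 0 of 10 members differed between CMs and ECs, beside 1.51% of 12085 genes, 0 between CMs and FBs, beside 0.331%, and 0 between ECs and FBs, beside 3.22%. DESeq2 called 0 members in all 3. Fosl2 was the 1 member with an unadjusted p under 0.05 in edgeR, and its response in CMs was -1.23 ± 0.41 log2 units relative to FBs (unadjusted p of 0.00502, FDR = 0.274) and -0.91 ± 0.42 relative to ECs (unadjusted p of 0.0361, FDR = 0.478). The other members ran from -0.42 (Fos) to 0.66 (Ier2) between CMs and ECs, from -0.91 (Atf3) to 0.78 (Ier2) between CMs and FBs, and all 10 from -0.87 (Atf3) to 0.61 (Fos) between ECs and FBs. For Maff the values in CMs relative to FBs and ECs were -0.34 ± 0.45 and 0.06 ± 0.44. A response of Fosl2 or Maff that is particular to the sorted cells was therefore not shown. The difference between EMPA-Pre-AMI and Control-AMI passed between populations for no member (0 of 10 by edgeR and by DESeq2, and 0 at an unadjusted p under 0.05, in each pair), beside 0.993% of all genes for CMs and ECs, 0.00827% for CMs and FBs and 2.04% for ECs and FBs.

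Sham libraries show the members without ischemia but with isolation, here in CPM scaled over all libraries. Junb and Ier2 were lower in CMs, with Junb at 73.9, 78.8, 51.6 and 51.1 CPM in CMs, 146, 295, 109.7 and 122 in ECs and 337, 228, 135 and 365 in FBs. The CM libraries lay below all others, by -1.40 ± 0.41 (SE; FDR = 0.00491) log2 units against ECs and -2.06 ± 0.42 (SE; FDR = 0.000127) against FBs. Ier2 was 23.8, 20.8, 20.3 and 26.99 CPM in CMs, 66.1, 122, 80.6 and 59.9 in ECs and 96.7, 48.3, 31.0 and 129 in FBs, again without overlap of the CM libraries with the sorted cells, and its log2 difference was -1.84 ± 0.45 (SE; FDR = 0.000831) against ECs and -1.73 ± 0.45 (SE; FDR = 0.00173) against FBs. With a list term the differences from ECs were -0.29 for Junb (FDR = 0.678) and -0.74 for Ier2 (FDR = 0.29) in edgeR, and neither passed.

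Fosl2 was highest in Sham FBs at 131, 112, 60.5 and 108 CPM, against 75.9, 53.4, 41.4 and 48.7 in ECs and 52.7, 50.3, 43.0 and 54.6 in CMs. Against FBs the log2 difference was -1.04 ± 0.30 (SE; FDR = 0.00499) for CMs, without overlap, and -0.91 ± 0.30 (SE; FDR = 0.0132) for ECs, whose highest library lay above the lowest FB library. Between CMs and ECs it was -0.13 ± 0.31, and their order is not resolved. Without EC Sham replicate 3 the FDR between ECs and FBs was 0.0551 in edgeR. Jun was higher in ECs than in FBs (731 to 1306 against 218 to 842 CPM; log2 difference 1.25 ± 0.45 (SE; FDR = 0.0258)), although 1 FB library reached into the EC range, and with a list term the difference was 0.02 (FDR = 0.985 in edgeR). Atf3 was higher in CMs than in FBs (40.7 to 84.9 against 12.7 to 28.6 CPM), by 1.38 ± 0.49 (SE; FDR = 0.0211), and Egr1 lower (372 to 613 against 583 to 2414 CPM), by -1.30 ± 0.46 (SE; FDR = 0.0199). With a list term the Atf3 difference was 0.85 (FDR = 0.264 in edgeR). Without Sham FB replicate 1 the Egr1 difference was -0.72 (FDR = 0.191 in edgeR).

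Counted over the members, 2 of 10 differed between Sham CMs and ECs, beside 52.9% of all genes, 5 of 10 between CMs and FBs, beside 47.3%, and 2 of 10 between ECs and FBs, beside 37.7%. The shares for ECs lie below those of all genes, and that for CMs and FBs lies near it. Sham libraries did not overlap for 6387 of 12085 genes between CMs and ECs, 5508 between CMs and FBs and 4288 between ECs and FBs. By edgeR, Fos, Fosb, Jund and Maff passed in none of the 3 comparisons, and DESeq2 also called Fosb between CMs and ECs (log2 difference -1.48, FDR = 0.0488). Fos was 146 to 286 CPM in CMs, 170.5 to 429.9 in ECs and 137 to 667 in FBs, and Fosb 16.1 to 23.5, 21.8 to 74.1 and 19.8 to 112. Jund was 163 to 185, 87.3 to 234 and 87.9 to 311 CPM, and Maff 9.38 to 12.6, 10.1 to 20.8 and 10.3 to 16.8 CPM in the same order. Population, handling after digestion and sample-sheet list cannot be told apart in these libraries, and with a list term 0 members passed between CMs and ECs in edgeR, since CMs were not sorted and all 4 Sham CM libraries stood in list 4, which held 0 Sham EC and 1 Sham FB library. CM libraries also held transcripts of other cells, and 9 of 10 FB markers were higher in Sham CMs than in Sham ECs, whose part in the CM levels was not tested.

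Within a group, the members fell into sets that rose and fell together from library to library. Deviations of log2 CPM from the group mean, not from a list mean, were correlated over the 38 libraries, as a description. Both genes of a pair come from the same library and so share its cells, depth, scaling and sample-sheet list. Fos went with Jun (r = 0.82), Atf3 (0.78), Egr1 (0.75), Fosb (0.61) and Jund (0.60), and Jun with Egr1 (0.85) and Jund (0.85). Junb and Ier2 formed a closer pair (r = 0.70) than either made with Jun (0.26 and 0.34). Fosl2 had r = 0.015 with Fos and 0.12 with Jun, Maff 0.14 and 0.06, whereas Fosl2 and Maff had 0.52 with each other. Over all 38 libraries, Fosl2 and Maff had the lowest values with Fos of the 9 other members. They are the 2 that rose with AMI in sorted cells. Junb (0.45) and Ier2 (0.52) had higher values there, though not above Maff in CMs alone. The sets were not closed, since Maff had 0.57 with Junb and Fosl2 0.46 with Egr1.

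**Figure D4:**
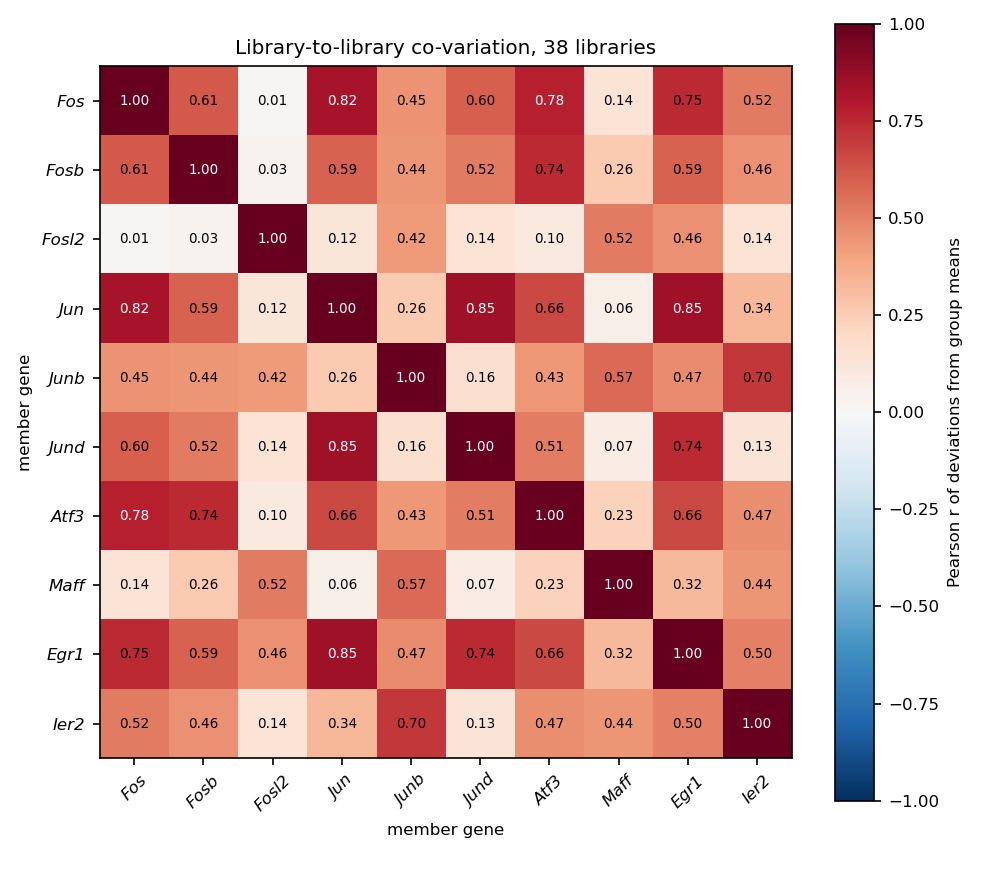
Pearson correlation of the members' deviations from their group means (log2 CPM) over all 38 libraries, in colour and as numbers. Fos, Fosb, Jun, Jund, Atf3 and Egr1 form a block with values of 0.51 or more, and the Fosl2 and Maff rows are pale against Fos and Jun.

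This block was tightest in FBs, where Fos had r = 0.97 with Jun, 0.89 with Egr1 and -0.03 with Fosl2 over 12 libraries. In ECs Fos and Jun had r = 0.59 and in CMs 0.74, over 13 libraries each. Fosl2 had r = 0.12 with Fos in ECs and -0.15 in CMs. Maff had -0.19 with Fos in FBs, 0.406 in ECs, where Jund had 0.402, and 0.40 in CMs. There Fosb (0.31), Junb (0.06), Jund (0.21) and Ier2 (0.32) lay below Maff. The distance of Fosl2 and Maff from Jun and Egr1 was not seen in ECs, where Fosl2 had r = 0.52 with Jun and 0.75 with Egr1, and Maff 0.60 and 0.71. The mean ratio of highest to lowest library within FB groups was 6.70 for Fosb, 5.96 for Fos, 4.40 for Jun, 2.09 for Maff and 1.91 for Fosl2. In CMs, which were not sorted, the same ratios were 3.68, 2.19, 1.74, 2.21 and 1.64. All Sham and Control-AMI CM libraries stood in list 4, whereas every FB group mixed lists. Sorting, population and list cannot be told apart in these spreads. The FB libraries with the most Fos were Sham replicate 1 and Control-AMI replicate 3, 1 in a group without ischemia and 1 with it. Both stood in sample-sheet list 4. Fos in Sham FBs was 205 to 434 CPM in list 1 and 982 in list 4. For Control-AMI it was 128 and 274 to 1240.2, and for EMPA-Pre-AMI 198 and 262 to 525. Jun and Jund were also lower in list 1 in each group, while Fosl2 in Control-AMI was 700.1 CPM in list 1 and 338 to 709 in list 4. The part of the list in these correlations was not tested.

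**Figure D5:**
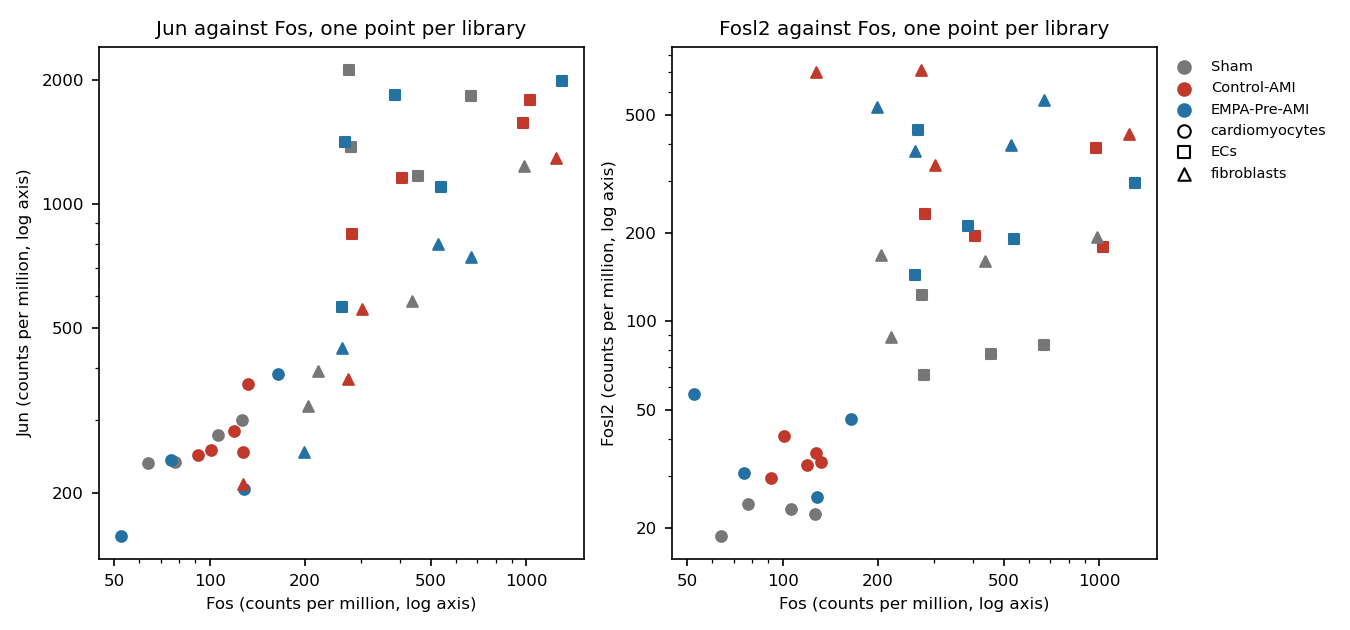
Jun (left) and Fosl2 (right) against Fos, 1 point per library (CPM, log axes, scaled within each population), coloured by group and shaped by population. Within the fibroblasts (triangles), Jun rises with Fos across all groups, while Fosl2 separates Sham from the AMI groups at any level of Fos.

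Genes reported to rise with tissue dissociation gave a similar split in part. From a list of 22 such genes, Dnajb1 (r = 0.62), Dnaja1 (0.61) and Dnajb4 (0.61) had the highest correlations with Fos. These are co-chaperones of the heat shock response, and their values with Fosl2 were 0.20, 0.12 and 0.24. The heat shock genes Hspe1 (-0.0025 with Fos, 0.14 with Fosl2) and Hsp90ab1 (0.18 and 0.20) did not follow. Mcl1, not a heat shock gene, had 0.53 with Fos and 0.13 with Fosl2. Fosl2 went with the metallothioneins Mt1 (0.63) and Mt2 (0.61) and with Irf1 (0.62), and Maff with Cebpd (0.62) and Cebpb (0.56), 2 C/EBP factors. In Control-AMI against Sham FBs, 1 of the 13 heat shock proteins and co-chaperones rose (Bag3), with a median log2 fold change of 0.39, and 4 of the other 9 genes rose (Mt1, Mt2, Socs3 and Cebpb), with a median of 1.38. In ECs the counts were 0 of 13 and 7 of 9, with medians of 0.17 and 2.15, and in CMs 0 of 13 and 1 of 9 (Mt2), with medians of 0.03 and 1.06. Over all genes the shares called were 4.16% in FBs, 6.56% in ECs and 0.0655% in CMs. Splitting the list by gene name was chosen after its values were seen. By DESeq2, 3 of the 13 rose in FBs, 1 in ECs and 0 in CMs, and at an unadjusted p under 0.05 there were 4, 3 and 1. The summed level of all 22 genes was 8892 to 16315 CPM in Sham, 28791 to 37468 in Control-AMI and 24157 to 36900.4 in EMPA-Pre-AMI FBs. In ECs it was 11872 to 19423, 20649 to 29684 and 14517 to 31695 CPM. The sum lay above the Sham range in both AMI groups of FBs and in Control-AMI ECs. In EMPA-Pre-AMI ECs, where Fosl2 and Maff were also higher, it overlapped with Sham. Its mean in FBs was 12514 CPM in Sham and 33093 in Control-AMI, where Mt1 went from 334 to 6703 and Mt2 from 195 to 6744. The part of isolation in the level of any member was not tested, as no library was free of it.

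The genes most like Fos over the same 38 libraries, outside the members, were Tle4 (r = 0.77), Yes1 (r = 0.76), Klf6 (r = 0.76), Slc5a3 (r = 0.74) and Tulp4 (r = 0.72), out of 12085 genes. Among those most like Atf3 were Nabp1 (r = 0.76), Cited2 (r = 0.75), Garin4 (r = 0.73) and Arc (r = 0.73). Klf6 and Arc are themselves immediate early genes. For Fosl2 and Maff, looked up after their values were seen, the first were Serpina3f (r = 0.70), Set (r = 0.70) and Pim1 (r = 0.68), and Fkbp5 (r = 0.66), Zfp36 (r = 0.63) and Csrnp1 (r = 0.62).

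Other leucine zipper factors related to the members, the bZIP relatives, were tested as a list. For this list and the 3 that follow, the share of all genes called in Control-AMI against Sham was 4.16% in FBs, 6.56% in ECs and 0.0655% in CMs. In EMPA-Pre-AMI against Sham it was 5.11%, 2.71% and 0.338%. In FBs 3 of 13 bZIP relatives tested were higher after AMI and 0 lower, with a median log2 fold change of 0.07. Fosl1, which encodes Fra-1, had the largest change, 23.1 ± 14.2 against 1.02 ± 1.15 CPM (means ± SD) in Control-AMI against Sham, a log2 fold change of 4.37 ± 0.75 (SE; FDR = 0.00439) from at most 7 counts in any Sham library. Nfil3, a repressor of the PAR family's target genes, rose by 1.12 ± 0.29 and Mafk, a small Maf like Maff, by 0.99 ± 0.24. In ECs 1 of 13 rose, Jdp2, a repressor of AP-1 sites, by 0.85 ± 0.23 (FDR = 0.0311), and in CMs 0 of 12 passed in edgeR and DESeq2, with 1 at an unadjusted p under 0.05. In EMPA-Pre-AMI against Sham, 2 of 13 rose in FBs, Fosl1 by 4.51 ± 0.75 and Nfil3 by 1.23 ± 0.29, and 1 of 13 in ECs, Jdp2, by 0.90 ± 0.22.

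Of other immediate early genes, 10 of 35 tested rose and 2 fell in Control-AMI against Sham FBs, with a median of 1.15. Trib1, a pseudokinase that steers C/EBP degradation, rose by 3.26 ± 0.45, Gadd45g, a growth arrest gene, by 2.50 ± 0.38 and Plk3, a stress kinase, by 2.21 ± 0.39 (log2, SE). Ccn1, a matrix protein, and Klf2, a flow-responsive factor, changed by -1.93 ± 0.47 and -1.54 ± 0.24. In ECs 4 of 35 rose and 1 fell, with a median of 0.22: the orphan nuclear receptor Nr4a3 rose by 1.74 ± 0.33 and Csrnp1 by 1.68 ± 0.23, and Klf2 changed by -1.75 ± 0.28. In CMs 1 of 29 rose, Gadd45g, by 1.61 ± 0.26 (FDR = 0.0114). In EMPA-Pre-AMI against Sham, 11 of 35 rose and 1 fell in FBs, 2 rose and 2 fell of 35 in ECs, and 5 of 29 rose in CMs. Myc rose by 2.51 ± 0.54 in these FBs, Csrnp1 by 2.29 ± 0.22 in ECs, and Gadd45g by 2.33 ± 0.27 and the matrix gene Ccn2 by 1.97 ± 0.38 in CMs.

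Of the kinases and factors upstream of the members, 1 was higher and 1 lower of 23 in Control-AMI against Sham FBs, beside 4.16% of all genes. In ECs 1 was higher and 2 lower of 24, beside 6.56%. Map2k3, the p38 kinase kinase MKK3, was the one that rose in both, by 1.24 ± 0.23 and 0.92 ± 0.17. Mapk7, which encodes ERK5, changed by -1.22 ± 0.27 in FBs, and Elk3, a partner of serum response factor, by -0.98 ± 0.21 and Map3k1, a kinase above JNK, by -0.72 ± 0.15 in ECs. In CMs 0 of 22 passed in edgeR and DESeq2, and 0 had an unadjusted p under 0.05. In EMPA-Pre-AMI against Sham ECs, 3 of 24 rose, Map2k3 by 1.34 ± 0.17, the actin-sensing coactivator Mrtfb by 0.88 ± 0.18 and Map2k4, a kinase of JNK, by 0.73 ± 0.19.

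Genes known as AP-1 targets rose in part in each population. In FBs 4 of 15 tested rose and 0 fell (median 0.91), among them the cytokine gene Il6 by 4.53 ± 0.76 and the cell cycle inhibitor Cdkn1a by 1.74 ± 0.34. In ECs 6 of 12 rose (median 1.61, the same with Il6 at its bound), and Il6 had 0 counts in all 4 Sham EC libraries and 12 to 44 in Control-AMI, at least 6.78-fold higher when set against 3 counts in the smallest Sham library. Timp1 and Mmp3, a protease inhibitor and a matrix protease that FBs also express, rose in ECs, Timp1 from 1 to 4 counts per Sham library to 9 to 27 in Control-AMI and Mmp3 from 2 to 15 counts to 16 to 51 (log2 1.96 ± 0.57), in the group whose FB marker sum was highest, and the part of FB transcripts in this was not tested. In CMs 1 of 9 rose, Cdkn1a, by 1.63 ± 0.25 (FDR = 0.00683). In EMPA-Pre-AMI against Sham, 5 of 15 rose in FBs, 3 of 12 in ECs and 1 of 9 in CMs, with Cdkn1a at 2.08 ± 0.22 in ECs and the heme oxygenase gene Hmox1 at 2.83 ± 0.68 in FBs. Between EMPA-Pre-AMI and Control-AMI, Nr4a3 (-1.47 ± 0.31) and the membrane protease Mmp14 (-1.19 ± 0.28) were lower in ECs, where 9 of 9 FB markers tested were lower too, and no gene of these lists passed in CMs or FBs by edgeR.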

How the data were processed

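Libraries were made with a 3' protocol, and the authors deposited estimated counts per gene (expected counts from Salmon), with cutadapt 2.8, R 4.0.3, edgeR and the GRCm39 build named in the submitters' processing notes. The counts were rounded to whole numbers, since 4.55% of the values were not whole, and all columns were used (0 left out). Totals were 1352514 to 4509284 counts per library, so 3 counts, the level below which a gene is treated as at its floor, stood for 0.665 to 2.22 CPM. This and the intervals cover counting error and the spread between libraries, and the counts carry no molecular identifiers.

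Genes were kept with filterByExpr at a minimum count of 10, scaled with TMM factors and tested with the quasi-likelihood test of edgeR 4.0.16 (R 4.3.3, robust estimation) at a Benjamini-Hochberg FDR of 0.05 over all genes tested. Each population was fitted with its 3 groups, and Sham populations and differences between effects were fitted over all 38 libraries. DESeq2 1.42.0 and other settings were alternatives, and within-list fits were added after seeing the data. The scripts were tested on simulated data. The members and gene lists were chosen with earlier results of these data known. All 10 members are named in each comparison, and from each other list up to 3 genes with the largest rise and fall among those past the threshold, together with the 5 genes most like Fos and Atf3, and some genes that this rule names are not reported here.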

Additional observations from a re-analysis of the deposited data

Results flagged for a closer look

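In groups of 4 or 5 libraries, the gap from the highest or lowest library to its nearest neighbour exceeded Dixon's critical value in 5 of 90 groups of a member, a population and a treatment. Chance gives about 1 in 20 groups. Fos was 1240.2 CPM in fibroblast Control-AMI replicate 3 against 128 to 302 CPM in the other libraries of its group, and 1292 CPM in EC EMPA-Pre-AMI replicate 2 against 262 to 538 CPM. Fosb was 270.4 CPM in fibroblast EMPA-Pre-AMI replicate 1, and 34.3 to 60.0 CPM in the others. Atf3 was 38.0 CPM in EC Sham replicate 3, below the 80.3 to 88.5 CPM of the others, and Maff was 21.0 CPM in cardiomyocyte Control-AMI replicate 4, above 6.90 to 10.7 CPM.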

How the results depend on the processing

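Of 3990 values of single members under other settings, 3929 stayed on their side of the threshold without a called change of sign (297 values that passed in neither fit changed sign), 35 lost significance, 25 gained it and 1 reversed, Jund between Sham cardiomyocytes and fibroblasts, which was -0.85 (FDR = 0.0439, edgeR) with the sample-sheet list in the model. The counts of members called moved as follows, and the causes were not tested. In cardiomyocytes, EMPA-Pre-AMI against Sham went from 0 to 2 with DESeq2, 1 without the count filter and 0 to 2 when libraries were left out in turn (2 without EMPA-Pre-AMI replicate 4, 1 without EMPA-Pre-AMI replicate 2 or Control-AMI replicate 3), and EMPA-Pre-AMI against Control-AMI from 0 to 1 without EMPA-Pre-AMI replicate 1 (range 0 to 1). In ECs, Control-AMI against Sham went from 2 to 1 without the filter, with the list term and within list 2, and to between 0 and 2 without a library (0 without Sham replicate 3, 1 without Sham replicate 2 or 4 or Control-AMI replicate 4). EMPA-Pre-AMI against Sham ECs went from 2 to 1 without the filter, within list 2 and without Sham replicate 2, 3 or 4, Control-AMI replicate 4 or EMPA-Pre-AMI replicate 2 (range 1 to 2). In fibroblasts, Control-AMI against Sham went from 2 to 1 (Maff) within list 4, and EMPA-Pre-AMI against Sham from 2 to 1 (Ier2, lower, and neither Fosl2 nor Maff), while DESeq2 gave 3 in each (Atf3, Fosl2 and Maff). Between Sham cardiomyocytes and ECs the count of 2 was 6 when every library needed 10 counts or more, 3 with DESeq2 (Fosb, Junb and Ier2) and 0 with the list term. Of the 5 called between Sham cardiomyocytes and fibroblasts, Atf3 passed in 12 and Egr1 in 14 of 16 other settings (highest FDR without a library 0.0755 and 0.191, edgeR). Between Sham ECs and fibroblasts it was 1 without the filter, 4 with the list term and 1 to 2 without a library (1 without EC replicate 1 or 3 or any fibroblast replicate). Deviations of same-numbered libraries had a median r of 0.02 in cardiomyocytes, 0.03 in ECs and 0.10 in fibroblasts. Differently numbered libraries had -0.02, -0.003 and -0.02, with overlapping ranges, so a weak pairing is not excluded. With a replicate block the counts were those given above, 2 in ECs and 2 in fibroblasts for Control-AMI against Sham. Groups of 4 to 5 pools limit what can be seen, and the 95% interval of Fos in fibroblasts spanned -1.62 to 1.77.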
